A study of Mus musculus with 96 samples.

Results

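This is an account of 2 microRNA hairpins in mouse liver, mir-802 (MI0004249) and mir-375 (MI0000792), out of 1187 hairpins in the deposited table. They were picked by their hairpin identifiers after earlier results of these data were known, because both differed strongly between male and female mice at both ages, so the sex difference is described below and not tested. The measurements are small RNA sequencing libraries from the liver of 96 mice of strain C57BL/6. Knock-in mice were heterozygous: beside 1 normal mouse Htt allele they carried 1 in which exon 1 is human, and this exon has 20 (Q20), 50 (Q50), 92 (Q92) or 140 (Q140) CAG repeats. Wild-type (WT) littermates were taken in the Q20 and the Q50 line, and were housed with the knock-in mice of their line, while Q92 and Q140 mice were housed with their own genotype according to the labels (the study's methods describe cages shared by knock-in and WT mice for its lines in general). At 6 and at 10 months each of these 6 genotype and line groups had 4 females and 4 males, which gives 24 groups of 4 libraries, and different mice were taken at each age. A long CAG repeat in Htt, the gene of huntingtin, causes Huntington's disease, and Q20 is treated as a control length, so WT and Q20 mice together are the controls here. The allele is heterozygous and sits at its own locus, so every cell type of the liver carries it.

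A microRNA is cut from a hairpin transcript into a mature strand that guides a silencing complex, and bases 2 to 8 of that strand, the seed, pair with target messenger RNAs. In mice, miR-802 is known to be raised in the liver in obesity, where it impairs insulin signalling. miR-375 is known above all from pancreatic islets, where it limits insulin secretion and is needed for normal islet cell mass. The values here count the reads of a whole hairpin and do not separate its mature arms. In bulk liver, fewer cells that make a microRNA and less of it per cell cannot be told apart.

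Both hairpins are shown with 3 of their mature strands, since reads of the hairpin and its strands make up the counts. All sequences are from RefSeq on GRCm38.p6 and are written 5′ to 3′. In the hairpins, capitals mark these 3 strands.
Mir802 hairpin: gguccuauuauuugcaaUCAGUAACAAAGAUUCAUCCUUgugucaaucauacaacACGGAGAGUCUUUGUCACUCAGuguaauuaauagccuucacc
Mir375 hairpin: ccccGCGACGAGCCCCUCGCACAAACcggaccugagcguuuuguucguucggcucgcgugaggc
In the mature strands, capitals mark the seed.
mmu-miR-802-5p: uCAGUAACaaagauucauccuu
mmu-miR-802-3p: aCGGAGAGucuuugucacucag
mmu-miR-375-5p: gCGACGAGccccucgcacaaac
The other arm of Mir375 is miR-375-3p, which had no entry among the sequences used, so its sequence and seed are not given or compared. The islet background above does not say which arm is meant. None of the 3 seeds printed here was shared with another of the 1679 mature strands listed by RefSeq (0 for each).

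Mir802 lies at chr16:93369720-93369816 on the plus strand and is 97 nt long, and Mir375 lies at chr1:74900658-74900721 on the minus strand and is 64 nt long. The lengths recovered from the deposited FPKM values, 97 and 64 nt, were the same, which is the only check of the names that these files allow. In the GENCODE annotation of this assembly (M21) neither hairpin overlapped a gene other than its own microRNA gene. The nearest gene to Mir802 was the lincRNA 1810044K17Rik at 691 bp, and the nearest to Mir375 was Cfap65 at 1350 bp. The Mir802 hairpin had 38.1% G and C, and that of Mir375 67.2%. The counts of both hairpins were whole numbers in all 96 libraries, no other hairpin held the same counts, and neither was at 0 in any library.

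mir-802 was the far more abundant of the pair, and mir-375 rested on few counts per library. Library totals ran from 2195052 to 6662671 estimated counts. Of these, mir-802 took 1407 to 15776 counts per library and mir-375 took 14 to 174. Per length, on the deposited FPKM scale, mir-802 was 63.4 ± 16.4 times (SD, n = 24) as high as mir-375 in females at 6 months and 62.1 ± 22.5 times in males. By FPKM, mir-802 had a median rank of 46 among all hairpins in females and 72 in males at 6 months, and 41 and 62 at 10 months. mir-375 had a median rank of 177 in females and 216 in males at 6 months, and 176 and 201 at 10 months. Between 506 and 620 hairpins were above 0 in a library. Counting error alone made up less than 1% of the variance between mice of a group for mir-802 (0.264% to 0.753%), but 22.2% to 38.8% of it for mir-375.

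At 10 months 4 libraries stood apart from the rest by their connectivity (Z.k under -5) and were left out of all fits, and none at 6 months. They were Q92 female replicate 1, Q92 male replicate 2, WT male replicate 3 of the Q20 line and WT male replicate 3 of the Q50 line. That of the Q20 line had the lowest total of the series, with 2282 CPM of mir-802, inside the range of females, and 6.38 CPM of mir-375 from 14 counts, the lowest 10-month value. Levels are given as CPM, the hairpin's count scaled to the same total in every library, and values of the left-out libraries are named as such.

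Females had more mir-802 than males. At 6 months the lowest, median and highest values were 1175, 1740 and 2477 CPM in females and 314, 561 and 1398 CPM in males (n = 24 each). The means were 1704 ± 297 and 618 ± 249 CPM (SD), a ratio of 2.76. At 10 months the kept libraries gave 1692, 2247 and 2472 CPM in 23 females and 659, 942 and 1388 CPM in 21 males. Here the means were 2206 ± 208 and 982 ± 212 CPM, a ratio of 2.25, and no kept male reached the lowest female. With all 24 males the 10-month mean was 1010 ± 347 CPM, and the left-out male of the Q20 line, at 2282 CPM, lay above the lowest female.

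mir-375 was also higher in females at both ages. At 6 months the lowest, median and highest values were 13.5, 17.8 and 27.1 CPM in females and 3.79, 6.36 and 13.8 CPM in males (n = 24 each). The means were 18.4 ± 3.18 and 6.93 ± 2.25 CPM (SD), a ratio of 2.65. At 10 months they were 20.7 ± 3.23 CPM in 23 females and 10.47 ± 2.85 CPM in 21 males, a ratio of 1.97. Among kept libraries a single male of each age, both of genotype Q140, lay above the lowest female, with 13.8 CPM at 6 months and 19.4 CPM at 10 months. Below this male lay 1 of 24 females at 6 months and 11 of 23 at 10 months. With all libraries, 2 males of 10 months lay above the lowest female.

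**Figure D1:**
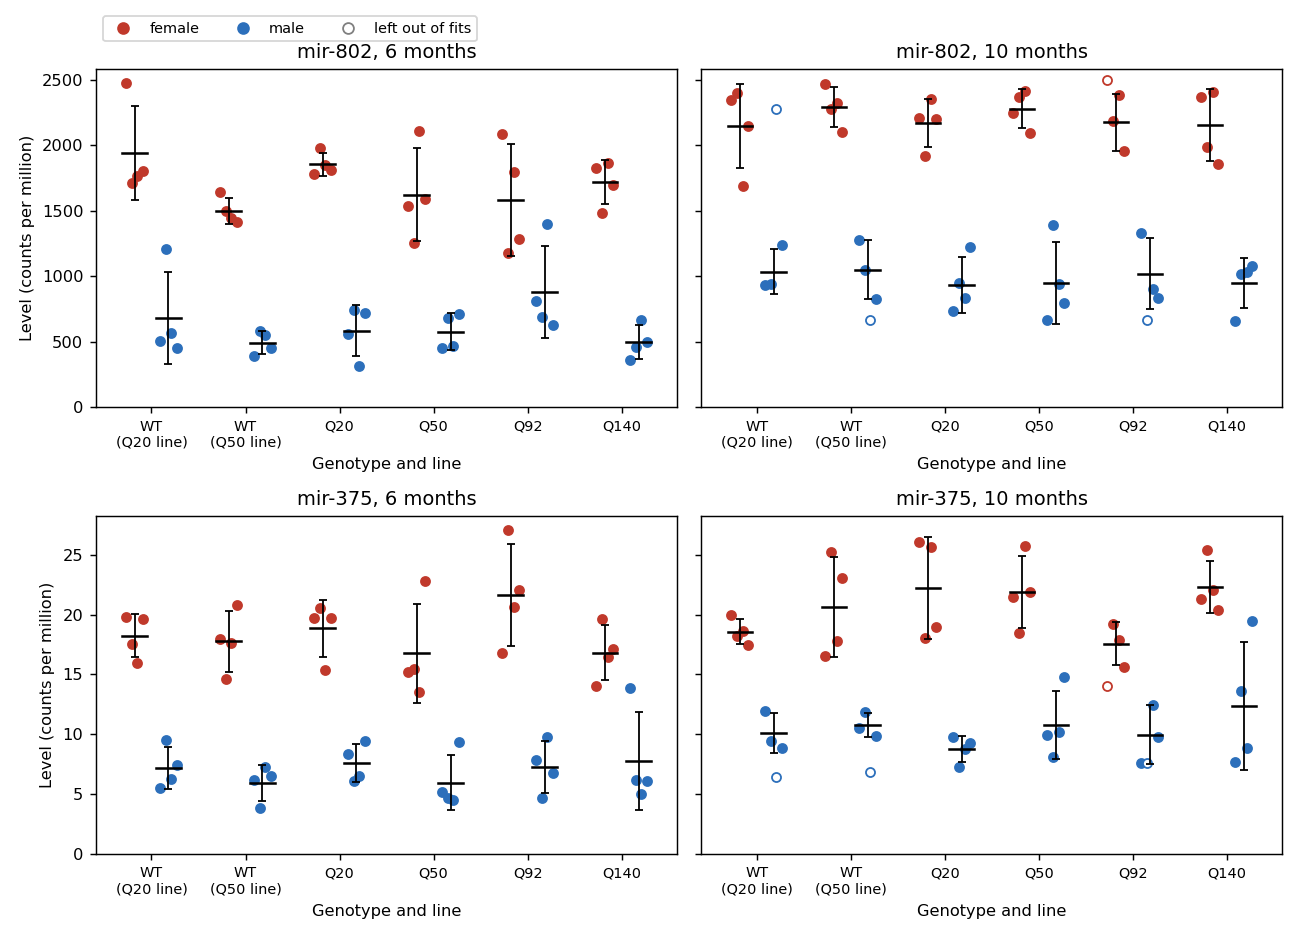
Level of mir-802 (upper panels) and mir-375 (lower panels) in every mouse, in CPM, by genotype and line, with females in red and males in blue. Bars are the mean ± SD of the kept libraries of each group and open symbols are the 4 libraries left out of the fits. Females lie above males in every genotype, except for 1 Q92 male of mir-802 at 6 months among the females and the open 2282 CPM male at 10 months.

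The sex difference had the same direction in each of the 6 genotype and line groups. For mir-802 the female to male ratio ran from 1.804 in Q92 to 3.47 in Q140 at 6 months, and from 2.08 to 2.41 among kept libraries at 10 months. For mir-375 it ran from 2.17 in Q140 to 2.99 in the WT of the Q50 line at 6 months, and from 1.76 in Q92 to 2.53 in Q20 at 10 months. The sexes did not overlap in 5 of 6 genotypes for mir-802 at 6 months and in 6 of 6 at 10 months, and in 6 of 6 at both ages for mir-375. As background, at 6 months females lay above males without overlap in 15.2% of 374 hairpins in the WT of the Q20 line and in 6.95% in the WT of the Q50 line. For Q20 and Q50 mice it held for 8.29% and 6.15%, and for Q92 and Q140 mice for 3.21% and 7.22%. At 10 months, over 383 hairpins, these shares were 10.2% and 13.6% in the WT groups, 11.5% and 9.14% in Q20 and Q50 mice, and 20.4% and 9.92% in Q92 and Q140 mice. Over all kept mice of an age this held for 0.535% of hairpins at 6 months and 1.31% at 10 months, mir-802 at 10 months among them. Since the sex difference chose these hairpins, nothing is read from these shares.

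On the log2 scale of the fitted model, males were lower by -1.47 ± 0.10 (SE) for mir-802 and -1.35 ± 0.09 for mir-375 at 6 months. At 10 months the fitted differences were -1.14 ± 0.07 and -0.97 ± 0.09. Among all hairpins tested, 2 had a more negative value than mir-802 at 6 months and 3 at 10 months. For mir-375 the numbers were 4 and 5. The model called 38.2% of hairpins between the sexes at 6 months and 45.2% at 10 months, which is given as background only. Fits within single lane tags held sex alone, without genotype and line. There the difference lay between -1.53 and -1.08 for mir-802 and between -1.37 and -0.91 for mir-375. Whether the difference between the sexes itself changed with age is built from the contrasts that chose the hairpins and was not tested.

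The values of single mice show how the groups were made up. Among the 6-month WT mice of the Q20 line, mir-802 was at 1712, 1769, 1806 and 2477 CPM in females and at 451, 506, 565 and 1206 CPM in males. In the WT of the Q50 line the females had 1418, 1443, 1496 and 1641 CPM and the males 392.3, 448, 548 and 581 CPM. Within both WT groups the sexes were apart, and 1 mouse of each sex of the Q20 line lay well above its group.

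Q20 mice of 6 months had mir-802 at 1780, 1809, 1852 and 1977 CPM in females and 314, 557, 718 and 744 CPM in males. Q50 mice had 1254, 1537, 1590 and 2110 CPM in females and 447, 465, 679 and 714 CPM in males. Both groups lay within the range of the WT mice of their sex, except that the lowest Q20 male and the lowest Q50 female were below it.

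The Q92 mice of 6 months were widely spread for mir-802, with 1175, 1287, 1797 and 2085 CPM in females and 623, 685, 812 and 1398 CPM in males. Here the highest male lay above the 2 lowest females, the overlap named above. The library of this male had a low Z.k of -4.112. Q140 mice had 1487, 1700, 1825 and 1869 CPM in females and 357, 462, 497 and 665 CPM in males, with a wide gap between the sexes.

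By 10 months the genotypes lay closer together in mir-802. WT females of the Q20 line had 1692, 2152, 2350 and 2401 CPM, and the kept males 932, 939 and 1236 CPM. WT females of the Q50 line had 2105, 2279, 2324 and 2472 CPM, and males 825, 1048 and 1278 CPM beside the left-out 662 CPM. Every kept WT male was below every WT female.

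In Q20 females of 10 months mir-802 was at 1916, 2200, 2212 and 2355 CPM, and in males at 731, 832, 948 and 1226 CPM. Q50 females had 2092, 2247, 2373 and 2419 CPM, and males 667, 795, 942 and 1388 CPM. Their ranges overlapped those of the WT mice of the same sex.

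Q92 females of 10 months had 1955, 2189 and 2388 CPM beside the left-out 2499 CPM, and males 833, 898 and 1329 CPM beside the left-out 665 CPM. Q140 females had 1856, 1990, 2368 and 2406 CPM, and males 659, 1019, 1031 and 1077 CPM. The lowest of these males stood apart from the other 3 of its group and lay below the kept control males, the lowest of which had 731 CPM.

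For mir-375 at 6 months, WT females of the Q20 line had 16.0, 17.5, 19.6 and 19.8 CPM and males 5.49, 6.24, 7.45 and 9.503 CPM. In the WT of the Q50 line females had 14.6, 17.6, 17.99 and 20.8 CPM and males 3.79, 6.19, 6.51 and 7.27 CPM. The value of 3.79 CPM was the lowest of mir-375 in the series and rests on 18 counts.

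Q20 females of 6 months had mir-375 at 15.4, 19.7, 19.7 and 20.6 CPM, and males at 6.08, 6.47, 8.32 and 9.45 CPM. Q50 females had 13.5, 15.2, 15.5 and 22.8 CPM, and males 4.49, 4.67, 5.17 and 9.34 CPM. In Q50 the highest mouse of each sex lay apart from the other 3.

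The highest mir-375 values of 6 months were in Q92 females, with 16.8, 20.7, 22.1 and 27.1 CPM, while Q92 males had 4.63, 6.78, 7.83 and 9.76 CPM. Q140 females had 14.04, 16.5, 17.1 and 19.6 CPM and males 4.96, 6.07, 6.14 and 13.8 CPM. The high Q140 male nearly reached the lowest female of its group, 14.04 CPM, and was at the same time among the lowest in mir-802, at 357 CPM. The library of this male had a low Z.k of -3.543, and that of the Q92 female at 27.1 CPM had -3.758.

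WT females of 10 months had mir-375 at 17.5, 18.2, 18.6 and 19.9 CPM in the Q20 line and 16.6, 17.8, 23.1 and 25.3 CPM in the Q50 line. The kept WT males had 8.83, 9.39 and 12.0 CPM in the Q20 line and 9.87, 10.52 and 11.8 CPM in the Q50 line. The left-out WT males, at 6.38 and 6.80 CPM, were below them.

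Q20 females of 10 months had 18.1, 18.9, 25.6 and 26.1 CPM of mir-375 and males 7.26, 8.77, 9.28 and 9.74 CPM. Q50 females had 18.4, 21.5, 21.9 and 25.7 CPM and males 8.11, 9.93, 10.1 and 14.8 CPM. These groups overlapped the WT mice of their sex.

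Q92 females of 10 months had 15.6, 17.9 and 19.2 CPM beside the left-out 14.02 CPM, and males 7.61, 9.80 and 12.5 CPM beside the left-out 7.54 CPM. Q140 females had 20.4, 21.3, 22.1 and 25.4 CPM and males 7.63, 8.83, 13.6 and 19.4 CPM. Among the kept females of this age, Q92 mice were thus on the low side and Q140 mice on the high side. Their ranges did not overlap each other. This pair of genotypes was picked after the values were seen, and the share of hairpins separated in this way was not computed. Against the controls, with both sexes in the fit, mir-375 passed in neither genotype (edgeR adjusted p = 0.575 for Q92 and 0.509 for Q140). Counting error made up 38.8% of the variance within groups of females at 10 months, so nothing is read from the gap.

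Relative to the mean, males varied more from mouse to mouse than females in both hairpins. In CPM, the SD given above was larger in females for mir-375 at both ages and for mir-802 at 6 months. The coefficient of variation within groups for mir-802 was 38.1% in males and 16.7% in females at 6 months, and 24.3% and 10.2% at 10 months. For mir-375 it was 34.5% and 16.6% at 6 months, and 28.5% and 14.7% at 10 months. The counting error of mir-375 was itself larger in males, 18.4% against 10.3% at 6 months, because they had fewer counts. That of mir-802 was 1.957% in males and 1.08% in females at this age.

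The question of age was taken up next, which the choice of the hairpins did not use. mir-802 rose from 6 to 10 months in both sexes, and mir-375 rose in males, while its change in females did not pass the test. Mean mir-802 in females went from 1704 to 2206 CPM, a ratio of 1.29, and in males from 618 to 982 CPM, a ratio of 1.59 (SD as above). Of the kept 10-month mice, 22 of 23 females and 21 of 21 males lay above the 6-month mean of their sex. Mean mir-375 went from 6.93 to 10.47 CPM in males, a ratio of 1.51, with 21 of 21 males above the 6-month mean. In females it went from 18.4 to 20.7 CPM, with 16 of 23 above.

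With edgeR's quasi-likelihood test and Benjamini-Hochberg adjustment over 408 hairpins, mir-802 was higher at 10 months by 0.42 ± 0.07 on the log2 scale (SE, adjusted p = 5.18e-08). Taken apart by sex, the edgeR difference was 0.27 ± 0.09 in females (adjusted p = 0.00988) and 0.57 ± 0.09 in males (adjusted p = 1.40e-07). mir-375 was higher by 0.24 ± 0.07 over both sexes (edgeR adjusted p = 0.00391). In males this was 0.46 ± 0.10 (edgeR adjusted p = 0.000126), and in females 0.05 ± 0.09, with an interval from -0.14 to 0.23 (edgeR adjusted p = 0.725). Changes with age were common in this liver series. The same test called 58.6% of all hairpins, 31.6% higher and 27.0% lower at 10 months. It called 41.2% in females (21.8% higher and 19.4% lower) and 44.9% in males (21.8% higher and 23.0% lower). A call for age therefore does not set these hairpins apart. By absolute size, mir-802 ranked 61 and mir-375 ranked 89 of 408 for the change in males. In females they ranked 173 and 363. Since the ages are different mice sequenced as different sets of libraries, the age and the set cannot be told apart.

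The change with age had the same direction in every genotype for mir-802 in both sexes and for mir-375 in males. The ratio of 10-month to 6-month means for mir-802 ran from 1.11 to 1.53 over the 6 genotypes in females and from 1.16 to 2.13 in males. For mir-375 it ran from 1.16 to 1.82 in males. In females it ran from 0.811 to 1.325, where 5 of 6 genotypes were higher and Q92 was lower. All are ratios of plain CPM. Over all kept females these were larger than the fitted ratios, 1.126 against 1.034 for mir-375 and 1.295 against 1.207 for mir-802. The lowest of the 5, 1.018 in WT females of the Q20 line, may thus depend on the scaling. Q92 was also the genotype with the smallest change of mir-802 in males, 1.16, beside its high 6-month values. In the controls alone, mir-802 was higher at 10 months by 0.45 ± 0.09 (edgeR adjusted p = 0.000113) and mir-375 by 0.22 ± 0.08 (edgeR adjusted p = 0.0261). The control females alone did not pass for mir-802, with 0.24 ± 0.12 (edgeR adjusted p = 0.144).

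**Figure D2:**
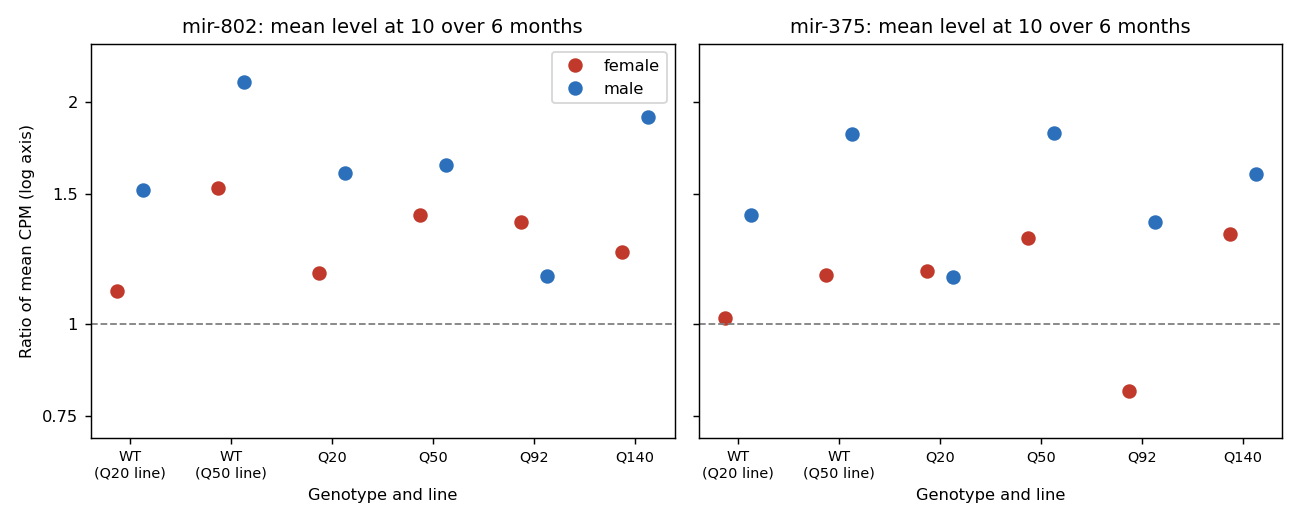
Ratio of the mean plain CPM at 10 months to that at 6 months for each genotype and line, on a log axis. Females are in red and males in blue, kept libraries only. The dashed line marks no change, and all points lie above it except mir-375 in Q92 females, at 0.811.

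The lane tags in the sample labels moved with these levels at 6 months. In females of this age mir-802 averaged 1466 ± 204 CPM under tag L6 (SD, n = 10) and 1900 ± 216 CPM under tag L7 (n = 13). Among the 6-month Q92 females, the L7 mice had 1797 and 2085 CPM and the L6 mice 1175 and 1287 CPM. In males the means were 581 ± 264 CPM under L6 (n = 8) and 646 ± 260 CPM under L7 (n = 14). The tags are not spread evenly over the groups. All 8 of the 6-month Q20 mice and the 4 WT females of the Q20 line carried L7, and the 4 WT females of the Q50 line carried L6.

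With genotype and sex in the model, a comparison added after these levels were seen, mir-802 differed between L7 and L6 by 0.13 ± 0.12 on the log2 scale at 6 months (edgeR adjusted p = 0.591). mir-375 differed in the other direction, lower under L7 by -0.39 ± 0.11 (edgeR adjusted p = 0.0101), where 15.2% of all hairpins were called, 6.42% higher and 8.82% lower. At 10 months the differences were -0.0031 ± 0.10 for mir-802 and 0.15 ± 0.12 for mir-375 (edgeR adjusted p = 0.996 and 0.897), with 1.83% of hairpins called.

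Within a lane tag the change with age was less even. Under L6 mir-802 was higher at 10 months by 0.53 ± 0.10 (edgeR adjusted p = 5.69e-05), and under L7 by 0.35 ± 0.15, which did not pass (edgeR adjusted p = 0.0777). For mir-375 it was 0.05 ± 0.13 under L6 (edgeR adjusted p = 0.768) and 0.49 ± 0.12 under L7 (edgeR adjusted p = 0.00145). The rise of mir-375 in males was 0.29 ± 0.18 under L6 (edgeR adjusted p = 0.208) and 0.57 ± 0.16 under L7 (edgeR adjusted p = 0.0128). In females its direction turned with the tag, from -0.16 ± 0.17 under L6 to 0.41 ± 0.17 under L7, and neither passed (edgeR adjusted p = 0.524 and 0.0929). Under L7 only 4 females and 4 males of 10 months were kept, and it is unknown if an equal tag at the other age means 1 and the same run. With the tag as a covariate, mir-802 differed by 0.44 ± 0.08 (edgeR adjusted p = 1.68e-06) and mir-375 by 0.20 ± 0.08 (edgeR adjusted p = 0.0396). The part of the lane tag in the change with age was not tested beyond these values.

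**Figure D3:**
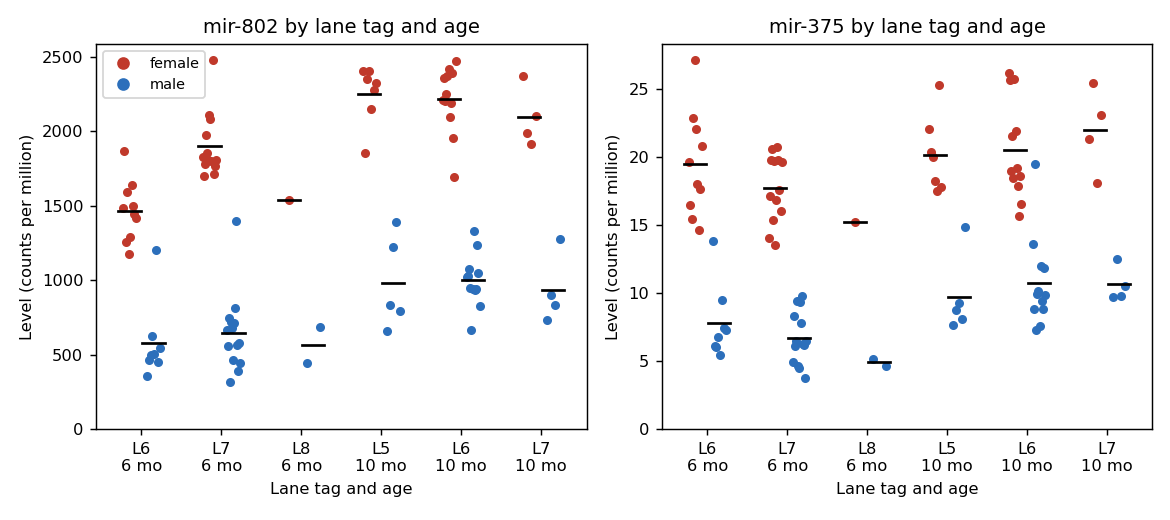
Level of mir-802 (left) and mir-375 (right) in the kept libraries, in CPM, by lane tag and age, with females in red, males in blue and the mean as a black line. Females of 6 months average 1466 CPM of mir-802 under L6 and 1900 CPM under L7, while at 10 months the tags lie close together.

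The main question of the series was whether the CAG length of Htt goes with changes in microRNAs, and neither hairpin passed any test of it. Over 17 comparisons, which gave 34 tests, 0 were called by edgeR, 0 had an unadjusted p under 0.05, and the same held for DESeq2 (0 and 0). The smallest unadjusted p of edgeR was 0.0573, for mir-802 in Q92 mice of 6 months. In the same comparisons edgeR called 0% of all hairpins in 12 of 17, and DESeq2 called 0 to 17 hairpins. The others were Q92 mice of 6 months (0.267%), Q92 (1.04%), Q140 (1.31%) and CAG length (2.09%) at 10 months, and CAG length over both ages (0.546%). The share of hairpins with an unadjusted p under 0.05 at 6 months was 1.87% for Q50, 7.75% for Q92, 1.34% for Q140, 2.14% for CAG length and 2.41% for its difference between the sexes. At 10 months these shares were 2.35%, 17.0%, 13.6%, 17.0% and 3.92%, and over both ages 8.47%. For Q92 and Q140 mice, genotype cannot be told apart from line, nor from housing as the labels give it.

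Relative to the controls of their sex, Q92 mice of 6 months had mir-802 at 1.20 ± 0.54 times (SD, n = 8, 6 above the control mean), with a range from 0.666 to 2.39. The fitted difference was 0.28 ± 0.15 on the log2 scale with a 95% interval from -0.0013 to 0.57 (edgeR adjusted p = 0.650), where 0.267% of hairpins were called. Without the WT male of the Q20 line at 1206 CPM, a control, it was 0.37 (edgeR adjusted p = 0.238). Over all single libraries left out, the fitted difference ran from 0.12 to 0.37 (edgeR adjusted p from 0.238 to 0.847). The ratio of 2.39 was that of the Q92 male at 1398 CPM. The libraries of this male and of the 1206 CPM control were kept, with low Z.k values of -4.112 and -3.686. Q50 and Q140 mice of this age were at 0.952 ± 0.208 and 0.910 ± 0.171 times the controls (SD, n = 8 each), with fitted differences of -0.03 ± 0.15 and -0.08 ± 0.15. At 10 months all 3 genotypes were within 0.1 of the controls on the log2 scale. Q50 was at -0.01 ± 0.10, Q92 at 0.00 ± 0.11 and Q140 at -0.09 ± 0.10.

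mir-375 in Q92 mice was at 1.12 ± 0.26 times the controls at 6 months (SD, n = 8) and at 0.940 ± 0.190 times at 10 months (n = 6). The fitted differences were 0.21 ± 0.13 and -0.17 ± 0.14, with intervals from -0.05 to 0.48 and from -0.44 to 0.10 (edgeR adjusted p = 0.707 and 0.575). In Q140 mice they were -0.04 ± 0.14 at 6 months and 0.17 ± 0.12 at 10 months (edgeR adjusted p = 0.996 and 0.509). In Q50 mice they were -0.07 ± 0.15 and 0.13 ± 0.12 (edgeR adjusted p = 0.998 and 0.9996). All these intervals held 0, and the signs at 6 months were not stable. With other controls or without the lane tag the 6-month value ran from -0.29 to 0.05 in Q140 and from -0.02 to 0.30 in Q92 mice, and the plain CPM ratio of Q140 mice was 1.02 ± 0.41 (SD, n = 8) at 6 months and 1.18 ± 0.38 at 10 months.

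Per 100 CAG repeats, mir-802 changed by 0.04 ± 0.11 on the log2 scale at 6 months and -0.06 ± 0.07 at 10 months. mir-375 changed by 0.06 ± 0.10 and 0.08 ± 0.09. The intervals for mir-802 ran from -0.18 to 0.26 and from -0.21 to 0.08, and those for mir-375 from -0.14 to 0.25 and from -0.10 to 0.25. Combined over the ages, the Z value was -0.37 for mir-802 and 1.01 for mir-375 (edgeR adjusted p = 0.919 and 0.878). The slope in males minus that in females was 0.09 ± 0.22 and -0.03 ± 0.15 for mir-802, and 0.09 ± 0.20 and 0.19 ± 0.18 for mir-375, at 6 and 10 months. None of these differences between the sexes passed the test (edgeR adjusted p from 0.978 to 0.985).

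Comparisons within a line left out the difference between colonies. Q50 mice differed from the WT of their own line by 0.14 ± 0.19 at 6 months and -0.10 ± 0.13 at 10 months for mir-802, and by 0.14 ± 0.17 and 0.06 ± 0.15 for mir-375. Q20 mice differed from the WT of theirs by -0.18 ± 0.18 and -0.04 ± 0.13 for mir-802, and by 0.21 ± 0.16 and 0.02 ± 0.15 for mir-375. Between the WT mice of the lines, mir-802 was at -0.33 ± 0.18 in the Q50 line at 6 months, with an interval from -0.68 to 0.01, and at 0.11 ± 0.13 at 10 months. These 6-month WT mice also differ in lane tag, as given above. An unadjusted p under 0.05 was reached by 0.267% of hairpins for Q50 in its line, 6.42% for Q20 in its line and 4.01% between the WT mice at 6 months, and by 4.44%, 10.2% and 11.2% at 10 months.

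**Figure D4:**
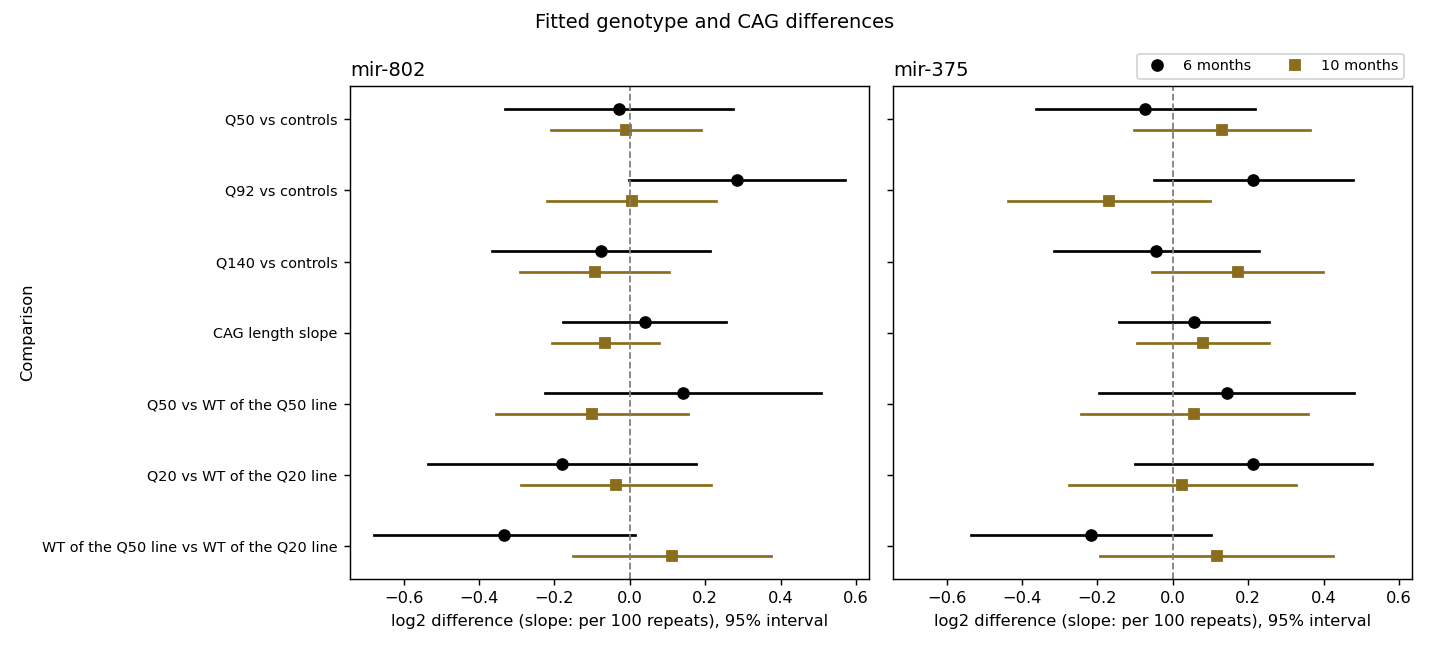
Fitted log2 differences of mir-802 (left) and mir-375 (right) for 7 genotype and CAG comparisons, at 6 months (black circles) and 10 months (brown squares), with 95% intervals as lines and slopes per 100 repeats. Every interval holds 0, and the one nearest to leaving it is that of mir-802 in Q92 mice of 6 months, from -0.0013 to 0.57.

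Since both hairpins were chosen for higher levels in females at both ages, a high correlation over the groups follows from the choice and is no finding about the pair. Over the group means of log2(CPM + 1), Pearson's r was 0.96 and Spearman's rho 0.90 (n = 24 groups). After the group means were subtracted, r was 0.03 and rho -0.04 over 92 libraries. By sex and age, r was -0.40 in females and 0.19 in males at 6 months (n = 24 each), and 0.10 and -0.07 at 10 months (n = 23 and 21). These are descriptions, and the libraries share depth and lane tags.

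**Figure D5:**
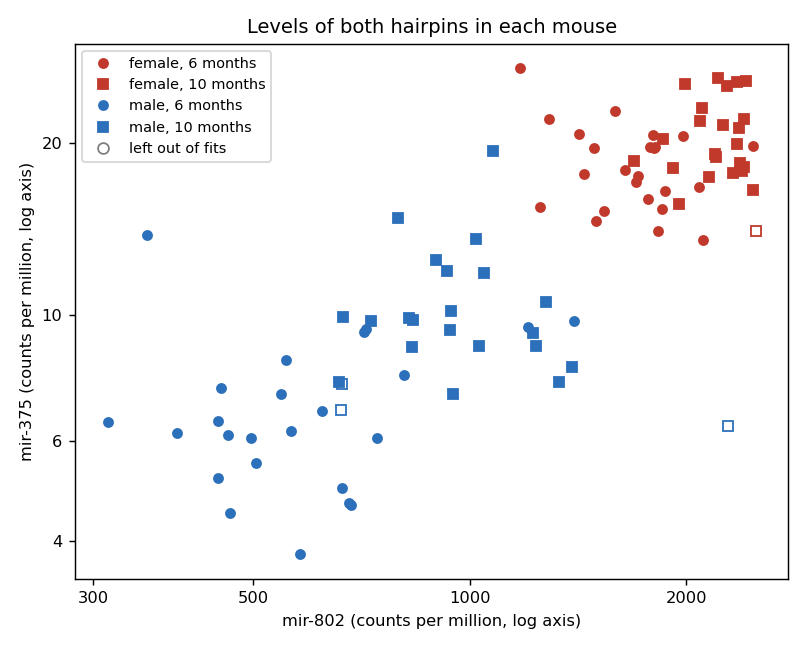
Level of mir-375 against mir-802 in every mouse, in CPM on log axes, with females in red, males in blue, circles for 6 months and squares for 10 months, and open symbols for the 4 libraries left out of the fits. The sexes form largely separate clouds (r inside the 4 sex and age groups from -0.40 to 0.19), and the open square at 2282 CPM of mir-802 and 6.38 CPM of mir-375 lies outside both.

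Among 208 other hairpins with a mean of at least 10 CPM, the closest to mir-802 over the 24 group means was mir-375 itself, and the closest to mir-375 was mir-802, which the choice of both by their sex difference favours. The same sex difference dominates the group means behind the other values over groups. For mir-802 the next were MI0000174 (73 nt, r = 0.94) and MI0014102 (85 nt, r = 0.94). MI0000174 went from 305 CPM in females and 238 CPM in males at 6 months to 359 and 263 CPM at 10 months. For mir-375 the next were MI0005484 (79 nt, r = 0.93) and MI0004120 (82 nt, r = 0.92). MI0004120 had 173 CPM in females and 33.4 CPM in males at 6 months, a wider gap than that of either member, and barely moved with age (175 and 34.9 CPM).

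The opposite pattern was held by MI0009939 (85 nt) for both, with r = -0.90 to mir-802 and -0.93 to mir-375. It had 78.4 CPM in females and 629.6 CPM in males at 6 months. The next lowest for mir-802 were MI0000146 (65 nt, r = -0.90) and MI0000152 (71 nt, r = -0.85), and for mir-375 MI0004127 (96 nt, r = -0.88) and MI0003521 (90 nt, r = -0.87). Counts of MI0000146 and MI0000152 were not whole in 83 and 95 libraries, so their values are uncertain.

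Inside the groups other hairpins were closest. For mir-802 these were MI0000590 (95 nt, r = 0.61), MI0000576 (88 nt, r = 0.50) and MI0000143 (71 nt, r = 0.50), and the lowest were MI0000551 (89 nt, r = -0.64), MI0004155 (65 nt, r = -0.53) and MI0004679 (82 nt, r = -0.50). Counts of MI0000576, MI0000143 and MI0004155 were not whole in 95, 96 and 96 libraries. MI0000551 averaged 212800 CPM, a share of the total that enters the CPM of every other hairpin. For mir-375 the closest were MI0000257 (63 nt, r = 0.44), MI0000695 (110 nt, r = 0.38) and MI0005521 (83 nt, r = 0.37). The lowest for mir-375 were MI0000570 (95 nt, r = -0.32), MI0004679 (r = -0.28) and MI0000235 (66 nt, r = -0.28). MI0000570 averaged 212700 CPM, a share that likewise enters the CPM of every other hairpin. None of the 3 closest was shared by the members inside the groups, and MI0004679 was among the 3 lowest of both.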

How the data were processed

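Total RNA from liver was enriched for small RNA and sequenced as short single-end reads, with base calling by CASAVA 1.8.2 according to the submitters' processing notes. The study's methods state alignment to mm10 with STAR at default settings and counting with HTSeq. The authors deposited estimated counts per hairpin and FPKM values, each with one column per library, and 0 columns of per-sample values were left unused. In 248 of 1187 hairpins some deposited estimated counts were not whole (tolerance 0.0001), so all were rounded before testing. The design had assumed plain counts. FPKM served for comparisons between hairpins and for their lengths. Totals of 2195052 to 6662671 set the precision, most of all for mir-375.

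Groups came from the labels. The members and lists were chosen with earlier results of these data known. As in the study's methods, libraries with standardized connectivity (Z.k) under -5 at their age were left out (4 of 96, leaving 92). Tests used the quasi-likelihood F test of edgeR 4.0.16 with TMM scaling in R 4.3.3, on hairpins that reached 1 CPM in 8 libraries or more, with Benjamini-Hochberg adjustment over all hairpins tested and a threshold of 0.05. Genotype and CAG tests were fitted per age with sex and lane tag as covariates, with CAG length 7 for WT, per 100 repeats. The study names a batch covariate without defining it, and the lane tag was taken for it. Age was fitted over both ages with genotype, line and sex. Intervals are 95% and use the fitted SE. Lane tags were compared after the levels had been seen. Errors of levels are SD between mice. The labels number the samples of a group without saying more of their origin, so p-values measure the spread between these samples. The study's methods took at most 1 mouse of a sex and genotype from a litter and preferred litters giving several mice. Groups may thus share litters, which the labels do not name and the fits left out. The 144 pairs within groups held 0 identical libraries (smallest chi-square per degree of freedom 18.3). The fits were checked on simulated counts.

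Alternatives were DESeq2 1.42.0, its size factors in edgeR, no filter, all libraries, a replicate block, no lane tag or fits within a tag, other controls, other CPM scalings, and each library left out. Besides the members, the text names the 3 hairpins most and least correlated with each, over group means and inside groups. Lists by name of other glucose-linked microRNAs and of cell type markers, hepatocyte and pancreas included, could not be matched to accessions with the tables used here and were not run, so the tissue label was not checked.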

Additional observations from a re-analysis of the deposited data

Results flagged for a closer look

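In groups of 4, a single mouse lay far from the other 3 (Dixon's test at 95%) in 5 of 48 sets of values (24 groups for each of the 2 hairpins). The nominal rate of about 1 in 20 holds for normally distributed values. The share of such sets over all hairpins was not computed, so nothing is read from this count. For mir-802 these were the Q140 male of 10 months at 659.3 CPM (others 1019 to 1077), the WT female of the Q20 line of 6 months at 2477 CPM (others 1712 to 1806) and the WT male of the Q20 line of 6 months at 1206 CPM (others 451 to 565). For mir-375 they were the Q140 male of 6 months at 13.83 CPM (others 4.96 to 6.14) and the Q50 male of 6 months at 9.343 CPM (others 4.49 to 5.17). Over all hairpins, the libraries of the 1206 CPM male and the 13.83 CPM male had low connectivity (Z.k -3.686 and -3.543), though above the limit of -5. That of the 2477 CPM female was at -2.27, and the others were at -0.35 (9.343 CPM) and 0.08 (659.3 CPM).

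In females, whose change of mir-375 with age did not pass the test, the genotypes lay on different sides of their 6-month means. All 3 kept Q92 females of 10 months lay below the 6-month mean of their genotype (ratio of means 0.8112), while all 4 Q50 and all 4 Q140 females lay above theirs (1.307 and 1.325). The ages overlapped in Q92 and in Q50 females. The difference between the genotypes was not tested.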

How the results depend on the processing

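No genotype, CAG or own-line test of either hairpin was called under any alternative (0 of 1884 values, of which 17 had an unadjusted p under 0.05, with a smallest adjusted p of 0.238). The age calls of both hairpins kept their side of the threshold under other size factors, DESeq2, no filter, all libraries, the lane tag as covariate and each left-out library. Exceptions on the log2 scale, whose cause was not tested, were these. Fits within a tag and in the controls alone also held fewer libraries. Within L6, mir-375 gave 0.055 (adjusted p 0.768) over both sexes and 0.29 (0.208) in males. Within L7, mir-802 gave 0.35 (0.0777) over both sexes, 0.19 (0.610) in females and 0.49 (0.0899) in males. In the controls alone mir-802 in females gave 0.24 (0.144). The male minus female difference of mir-802 at 6 months moved to -1.32 within L6, where the fit held sex alone, without genotype and line. With single libraries left out, the change with age ran from 0.38 to 0.45 for mir-802 and 0.21 to 0.27 for mir-375, and the sex difference at 6 months of mir-802 from -1.55 to -1.44.

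Counts of hairpins called for age fell within L7 to 105 from 239 (both sexes), 61 from 168 (females) and 63 from 183 (males). For sex, fitted alone within a tag, they were 67 and 86 within L6 and L7 against 143 at 6 months. At 10 months they were 68 and 33 within L5 and L7 against 173. Under DESeq2 the calls went from 4 to 8 for Q92, 5 to 10 for Q140, 8 to 17 for CAG length and 0 to 5 for its difference between the sexes, all at 10 months. With Q20 as only controls at 10 months they were 12 for Q92 and 21 for Q140, and with WT only 1 and 0. For Q92 at 6 months 1 call became 0 with a replicate block, WT only or Q20 only, and at 10 months the block gave 7. Without the filter, CAG length at 10 months gave 4 and the lane tags 12 against 7. With no lane tag its difference between the sexes gave 6. With all libraries Q140 at 10 months gave 3, CAG length over both ages gave 1 against 2 with all libraries or no lane tag, and DESeq2 gave 1 against 0 between the WT lines at 10 months.

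Same-numbered libraries of different groups correlated by 0.007 at 6 months and -0.003 at 10 months on average. Single pairs ran from -0.461 to 0.56 and from -0.689 to 0.708. The averages take groups of all lines together, so they cannot decide if mice of a line were paired by number. A replicate block gave 0.42 for mir-802 and 0.24 for mir-375 for age and changed no call of either. Depth limits mir-375, at 14 to 174 counts per library.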
